A study of Mus musculus with 15 samples.

Results

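The gastrocnemius (GS) and intrinsic foot (IF) motor pools of the mouse were compared through 6 of the 15 libraries of a series on 5 hind-limb motor pools, 3 libraries of GS and 3 of IF. The members were taken by the pool names in their labels. The pair was chosen because these pools hold Isl1 in this series, which the labels do not state. The test ran over all genes of the count table that had enough reads. The GS libraries came from motor neurons of the gastrocnemius, a calf muscle that extends the ankle, and the IF libraries from motor neurons of the small muscles that lie within the foot. Both pools came from wild-type mice of postnatal day 6 with no treatment other than the tracer. Neurons had been filled backwards from the muscle with Alexa 555-labelled cholera toxin subunit B, injected on day 4, and were then cut by laser from frozen cord sections of 12 µm. A library held 30 to 40 cells from 2 to 5 animals, with at least 250000 µm2 of captured tissue. The labels do not say which animals went into which library, so p-values measure the spread between libraries. Whether libraries of a pool share animals is not stated, and part of that spread may be technical. The foot pool supplies a group of muscles rather than 1 muscle. In such bulk samples fewer cells of a type and less RNA per cell cannot be told apart.

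Both pools belong to the lateral motor column, the set of spinal motor neurons that innervates the limb. Neurons of its medial division carry the LIM homeodomain factor Isl1 and the forkhead factor Foxp1, while those of the lateral division carry Lhx1. Within the column, combinations of Hox proteins divide the neurons into pools along the cord. Enzymes that make retinoic acid, a vitamin A product that binds nuclear receptors, are known markers and regulators of limb motor neurons. Mature motor neurons are further divided into alpha and gamma types, and alpha neurons into fast and slow ones, which differ in the potassium channels and peptides that they express.

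Markers of the labelled cell type were read first. The pair was chosen as the pools with Isl1, so the levels of Isl1 are a description and no check of identity. Isl1 (ENSMUSG00000042258, chr13:117088478-117099897 on mm9) stood at 59.3, 105 and 57.8 CPM in GS, against 85.2, 128 and 113 CPM in IF, where CPM are read counts scaled to a library of 1000000 counts, with TMM factors over the 6 libraries. The pools overlapped, and edgeR's quasi-likelihood F-test gave a log2 fold change of GS over IF of -0.55 ± 0.32 (SE) with a Benjamini-Hochberg adjusted p = 0.436. Foxp1 was also present in both pools, at 132, 245 and 161 CPM in GS, against 209, 210.1 and 249 CPM in IF (log2 fold change -0.32 ± 0.27, edgeR adjusted p = 0.625). Lhx1 had no read in GS and 0.799, 0 and 2.45 CPM in IF, too few to be tested. Chat, the enzyme that makes acetylcholine, was at 152, 173 and 176 CPM in GS, against 94.5, 89.3 and 96 CPM in IF (log2 fold change 0.84 ± 0.22, edgeR adjusted p = 0.108). None of the 7 motor neuron markers tested was called, beside 1.34% of all genes tested, so the count says little for so short a list. In the other pools of the series, of the tibialis anterior (TA), extensor digitorum longus (EDL) and peroneus longus (PL), Isl1 was at 0 in 8 of 9 libraries and at 0.566 CPM in EDL 2.

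The libraries held 5488780 to 6506965 gene counts in GS and 5757374 to 8258781 in IF. The GS libraries were less alike than the IF libraries, with rank correlations of 0.819 to 0.876 within GS and 0.950 to 0.959 within IF. GS 2 had the fewest genes with a read, 13610, where the other GS libraries had 14798 and 16429 and the IF libraries 16637 to 17321. Of 36814 genes, 13199 passed the filter on low counts, and 177 of them (1.34%) differed at an adjusted p under 0.05. Of these, 82 (0.621% of those tested) were higher in GS and 95 (0.72%) lower, and 2074 had an unadjusted p under 0.05. The GS and IF libraries did not overlap for any of the 177, which also held for 24.0% of all genes tested. The median size of the log2 fold change was 1.97 among the higher genes and 3.36 among the lower ones. Of the lower genes, 9 had no read in any GS library, and with these at their limit of detection the median was the same 3.36. None of the higher genes was without a read in IF. Pou3f1 is listed under a pair of gene identifiers with the same counts, so the 177 calls hold 176 gene names. The count of calls fell to 29, 26 and 24 without IF 1, IF 2 and IF 3, and rose to 447 without GS 1 and to 327 without GS 2. In a fit of all 15 libraries, where the pools share 1 estimate of the spread, it was 18.

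**Figure D1:**
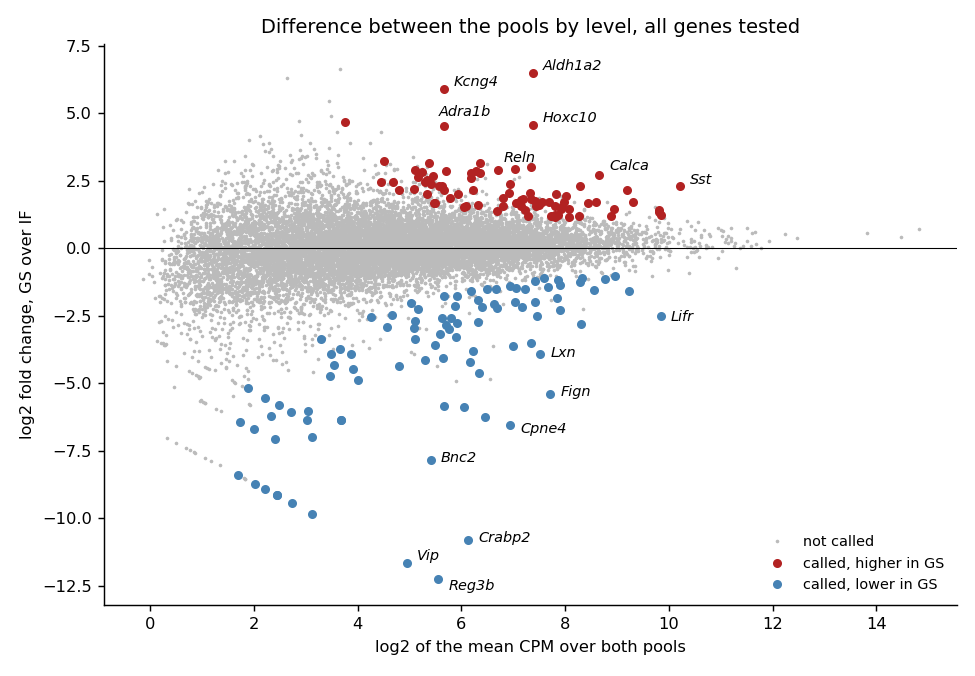
Each point is a gene of the 13199 tested, by its mean level over both pools (x, log2 CPM) and its log2 fold change of GS over IF (y). The 82 called genes higher in GS (red) have a median size of 1.97 and the 95 lower ones (blue) one of 3.36, and the fitted values of genes with no read in GS, such as Vip and Reg3b, shift with the prior count that the model adds.

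Precursors of secreted peptides differed in both directions. The stretches before 5 of their genes are shown because the cyclic AMP response element, a sequence known for its place in peptide gene promoters, can be read in them. The sequences are RefSeq's on GRCm38.p6, a later build than the mm9 of the count table, each the 250 bases before the annotated start, 5′ to 3′ on the gene's strand. Capitals mark, on either strand, the full element TGACGTCA, its core TGACG, which the full element also holds, and TATAAA. Sst (chr16:23890845-23891094, minus strand), Calca (chr7:114636358-114636607, minus strand) and Nts (chr10:102490419-102490668, minus strand) were higher in GS. Vip (chr10:5638968-5639217, plus strand) and Cartpt (chr13:99900684-99900933, minus strand) were lower in GS.
Sst: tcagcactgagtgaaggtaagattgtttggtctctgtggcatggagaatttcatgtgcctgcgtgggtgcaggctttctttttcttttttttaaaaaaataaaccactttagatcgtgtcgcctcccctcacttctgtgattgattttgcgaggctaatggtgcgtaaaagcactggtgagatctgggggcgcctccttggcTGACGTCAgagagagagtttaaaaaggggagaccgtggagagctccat
Calca: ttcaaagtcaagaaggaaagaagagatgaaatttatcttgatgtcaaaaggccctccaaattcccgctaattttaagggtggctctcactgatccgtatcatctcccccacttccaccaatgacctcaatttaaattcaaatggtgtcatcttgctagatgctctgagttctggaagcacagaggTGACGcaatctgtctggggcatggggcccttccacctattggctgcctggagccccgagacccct
Nts: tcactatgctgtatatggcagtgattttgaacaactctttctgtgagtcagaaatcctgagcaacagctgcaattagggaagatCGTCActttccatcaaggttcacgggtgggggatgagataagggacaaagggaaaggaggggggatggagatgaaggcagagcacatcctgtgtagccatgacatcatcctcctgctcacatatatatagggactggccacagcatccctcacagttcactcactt
Vip: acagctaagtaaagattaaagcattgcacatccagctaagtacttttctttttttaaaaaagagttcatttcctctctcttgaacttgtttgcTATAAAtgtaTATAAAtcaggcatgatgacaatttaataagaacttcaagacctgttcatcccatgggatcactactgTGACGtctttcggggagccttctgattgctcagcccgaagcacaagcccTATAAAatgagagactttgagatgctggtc
Cartpt: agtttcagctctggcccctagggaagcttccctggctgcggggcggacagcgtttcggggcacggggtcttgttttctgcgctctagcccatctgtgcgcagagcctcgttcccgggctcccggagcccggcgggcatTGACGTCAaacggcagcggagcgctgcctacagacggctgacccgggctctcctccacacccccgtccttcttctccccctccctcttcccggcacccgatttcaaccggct
The full element began 48 bases before the start of Sst and 112 before that of Cartpt. The core began 65 bases before the start in Calca, 79 in Vip and, on the other strand, 166 in Nts. Of the 7 called precursors, 6 had a promoter window in the table, and all 6 windows held the core, among them 2 with the full element. Over all 32851 windows of 300 bases, from 250 before to 50 after the start, 20.8% held the core, 1.79% the full element and 13.6% TATAAA on either strand. The match stood in genes that were higher in GS and in genes that were lower, and is a description of the letters only.

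Calca (ENSMUSG00000030669, chr7:121774994-121779872 on mm9), the gene of the peptide CGRP, was at 623, 821 and 646 CPM in GS, against 105, 129 and 88.2 CPM in IF. Every GS library stood above every IF library (log2 fold change 2.70 ± 0.24, edgeR adjusted p = 0.000957). Sst (ENSMUSG00000004366, chr16:23889667-23890931 on mm9), the precursor of somatostatin, was at 1054, 2610 and 2254 CPM in GS, against 322, 519 and 363 CPM in IF (log2 fold change 2.30 ± 0.35, edgeR adjusted p = 0.0193). GS 1 had the lowest level of the GS libraries, still above each IF library. Nts (ENSMUSG00000019890, chr10:101944394-101953053 on mm9), which encodes neurotensin, was at 31.6, 59.4 and 32.1 CPM in GS, against 2.51, 5.69 and 5.05 CPM in IF (log2 fold change 3.21 ± 0.52, edgeR adjusted p = 0.0228). Vgf, a granin-like precursor of several peptides, was at 241, 163 and 259 CPM in GS, against 68.6, 58.3 and 65.9 CPM in IF (log2 fold change 1.78 ± 0.26, edgeR adjusted p = 0.0157). These 4 were the precursors that were higher in GS.

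In the other direction, Vip (ENSMUSG00000019772, chr10:4698927-4707324 on mm9), the precursor of vasoactive intestinal peptide, had no read in any GS library and stood at 53.1, 61 and 71.4 CPM in IF. With 3 counts over the GS libraries as the limit of detection, it was at least 339.9-fold lower in GS (edgeR adjusted p = 0.000887). Such limits and the counting intervals below cover counting error only. Cartpt, the precursor of CART peptides, had 1 read in GS and 147 in IF, where it stood at 6.96, 6.67 and 6.2 CPM (edgeR adjusted p = 0.043). The ratio of IF to GS was 112, with a 95% counting interval of 19.7 to 4441. Scg3, a granin of secretory granules, was at 187, 231 and 196 CPM in GS, against 398, 447 and 474 CPM in IF (log2 fold change -1.10 ± 0.21, edgeR adjusted p = 0.0386). Cartpt falls outside the rule for named genes and was chosen after its value was seen. So 4 of 21 precursors tested were called higher, 3 lower and 14 not called, where 0.621% of all genes were called higher and 0.72% lower. The median over the list was -0.19, against 0.05 over all genes. Tac1, the precursor of substance P, also named after its values were seen, was at 0.329, 22.8 and 3.85 CPM in GS, against 60.1, 92.2 and 59.8 CPM in IF and did not pass (edgeR adjusted p = 0.187). Tac1 passed without GS 2 (edgeR adjusted p = 0.0151) and did not with any other library left out (edgeR adjusted p from 0.104 to 0.558). Of the precursors called, Calca and Vip kept the call without each library in turn, while Sst, Nts and Vgf lost it without IF 1, IF 2 or IF 3 and Scg3 and Cartpt also without GS 3 (edgeR adjusted p from 0.0643 to 0.278). In the fit of all 15 libraries Vgf, Scg3 and Cartpt were not called (0.17 to 0.682 as adjusted p). Among 22 peptide receptors, Tacr1, the receptor of substance P, was the one called, at 133, 210.0 and 159 CPM in GS, against 57.1, 45.8 and 66.9 CPM in IF (log2 fold change 1.56 ± 0.28, edgeR adjusted p = 0.0337).

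**Figure D2:**
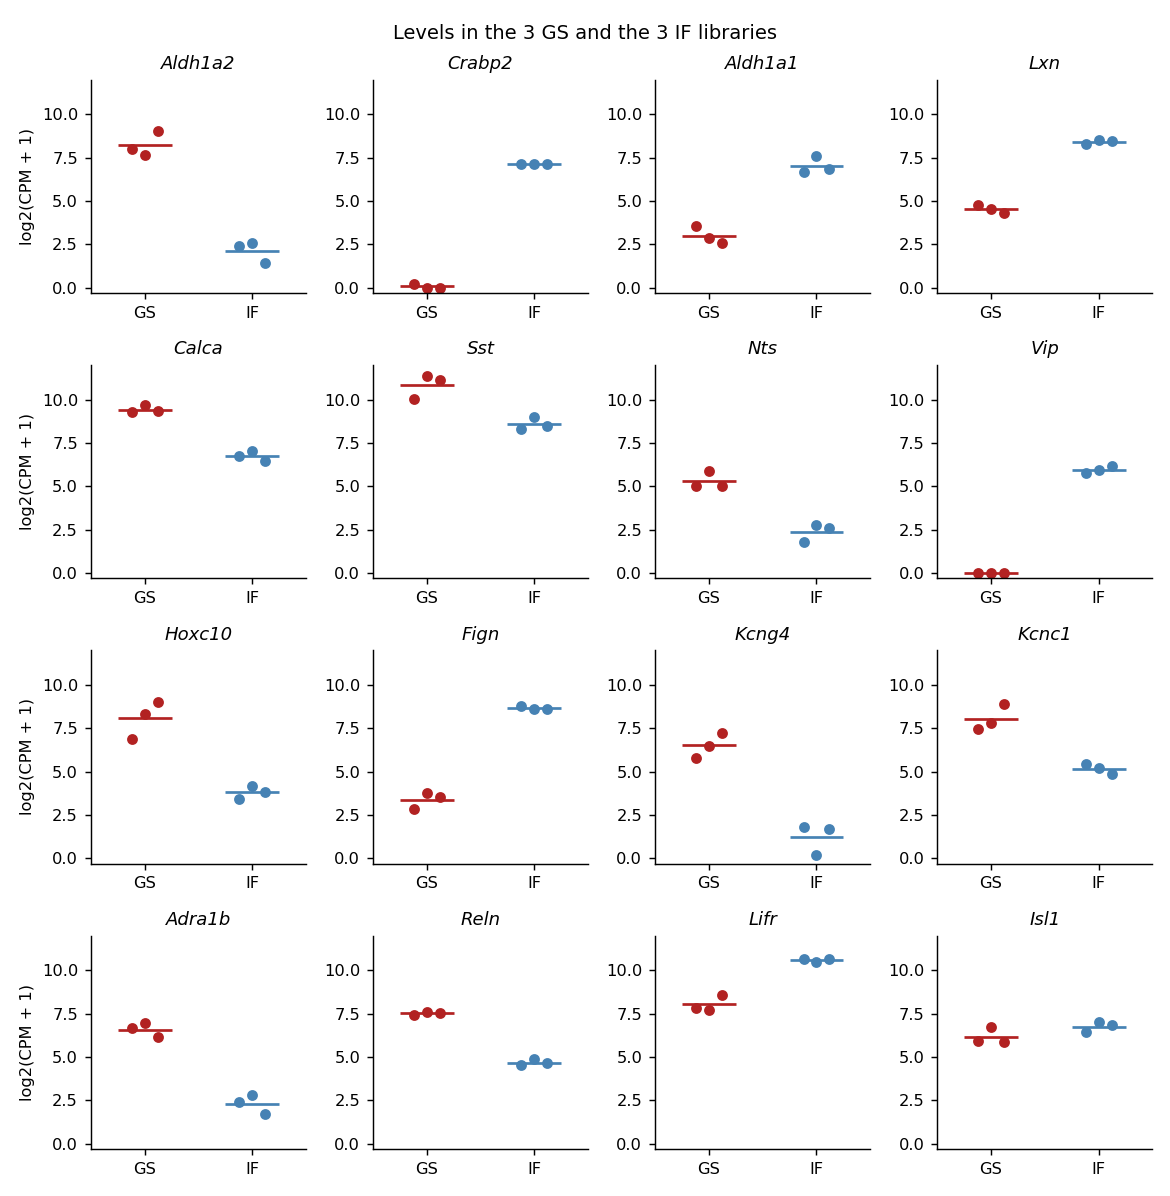
Levels of 16 genes as log2(CPM + 1) in the 3 GS libraries (red, left) and the 3 IF libraries (blue, right), with a line at the mean of each pool. The pools do not overlap in any panel except Isl1, and Crabp2 and Vip lie at or near 0 in GS.

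Genes of retinoid handling were called in both directions. Aldh1a2 (ENSMUSG00000013584, chr9:71063596-71144051 on mm9), which makes retinoic acid from retinaldehyde, was at 255, 198 and 532 CPM in GS, against 4.22, 4.86 and 1.63 CPM in IF. It was the largest difference among called genes higher in GS (log2 fold change 6.50 ± 0.55, edgeR adjusted p = 0.000769). Crabp2 (ENSMUSG00000004885, chr3:87752588-87757299 on mm9), a carrier of retinoic acid to its nuclear receptors, was at 0.165, 0 and 0 CPM in GS, against 137, 139 and 142 CPM in IF. The GS libraries together held 1 read and the IF libraries 3072, a ratio of IF to GS of 2334 with a 95% counting interval of 419 to 92214 (edgeR adjusted p = 9.85e-05). The 3 IF libraries differed by only a few CPM in this gene.

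Aldh1a1 (ENSMUSG00000053279, chr19:20676451-20717953 on mm9), another retinaldehyde dehydrogenase, was at 10.9, 6.26 and 4.95 CPM in GS, against 102, 192 and 113 CPM in IF. It thus went against Aldh1a2 (log2 fold change -4.20 ± 0.43, edgeR adjusted p = 0.00243). Lxn (ENSMUSG00000047557, chr3:67261920-67267849 on mm9), latexin, a carboxypeptidase inhibitor related in sequence to the retinoid-induced gene Rarres1, was at 26.5, 22.4 and 18.9 CPM in GS, against 318, 366 and 351 CPM in IF (log2 fold change -3.93 ± 0.25, edgeR adjusted p = 0.000179). On the authors' RPKM scale, which divides by gene length, the mean level of Aldh1a2 in GS was 67.6 ± 31 and that of Aldh1a1 in IF 36.8 ± 11.9 (SD, n = 3 each). Of 18 retinoid genes tested, 1 was called higher in GS, 3 lower and 14 not called, where 0.621% of all genes were called higher and 0.72% lower. The list's median log2 fold change was 0.28, against 0.05 over all genes. The 14 held the receptors of the list that could be tested, such as Rara, named after its values were seen, at 11.2, 67.3 and 18.3 CPM in GS, against 10.2, 12.8 and 6.36 CPM in IF (edgeR adjusted p = 0.267). All 4 called retinoid genes kept the call without each library in turn, and Aldh1a1 alone lost it in the fit of all 15 libraries (edgeR adjusted p = 0.766).

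Of 24 Hox genes with enough reads to test, out of 39, Hoxc10 was the one called (4.17%, beside 1.34% of all genes). Hoxc10 (ENSMUSG00000022484, chr15:102797223-102802145 on mm9), a Hox gene of the lumbar cord, was at 119, 316 and 522 CPM in GS, against 9.93, 16.9 and 13.2 CPM in IF (log2 fold change 4.58 ± 0.53, edgeR adjusted p = 0.00465). The GS libraries differed more among themselves than the IF libraries did, yet the lowest GS value was well above the highest IF value. Without IF 3 the call was lost (edgeR adjusted p = 0.0534). Hoxc8 of the same cluster, named after its values were seen, was at 23.9, 19 and 147 CPM in GS, against 4.68, 12.2 and 6.2 CPM in IF and did not pass (log2 fold change 3.04 ± 0.81, edgeR adjusted p = 0.117). Without GS 2 it did (edgeR adjusted p = 0.0439), and without GS 3 the log2 fold change was 1.47 (edgeR adjusted p = 0.227).

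The other clusters were examined after their values were seen. Hoxd10 was at 50.4, 66.4 and 33 CPM in GS, against 97.1, 103 and 103 CPM in IF (log2 fold change -1.02 ± 0.31, edgeR adjusted p = 0.154) and Hoxd11 at 19.3, 15.7 and 50.8 CPM in GS, against 53.6, 49 and 50.9 CPM in IF (log2 fold change -0.84 ± 0.46, edgeR adjusted p = 0.421), neither of them called. Hoxb8 was at 0.165, 1.52 and 0 CPM in GS, against 10.04, 11.1 and 12.2 CPM in IF (edgeR adjusted p = 0.123), Hoxb7 at 3.95, 0 and 0 CPM in GS, against 14.6, 17.9 and 15.8 CPM in IF (edgeR adjusted p = 0.238), and Hoxb9 at 4.45, 0 and 0.734 CPM in GS, against 15.3, 15.8 and 17.9 CPM in IF (edgeR adjusted p = 0.205). These 3 neighbours had reads in every IF library and none in 1 or 2 GS libraries. They did not pass, although Hoxb8 did without GS 2 (edgeR adjusted p = 0.0157), and Hoxb7 and Hoxb9 did without GS 1 (edgeR adjusted p = 0.0176 and 0.0476). With any other library left out they did not pass (edgeR adjusted p from 0.11 to 0.602). Calls over all genes also rose without GS 1 or GS 2, as given above. Hoxa7, Hoxa9 and Hoxa11 were present in all 6 libraries with no call. Of the 24 Hox genes tested, 12 had a log2 fold change above 0 and 12 below, with a median of 0.02. None of 12 Hox cofactors was called, and the member with the smallest p, Pknox2, was at 11.7, 133 and 43.5 CPM in GS, against 7.99, 9.58 and 10.6 CPM in IF (edgeR adjusted p = 0.123; 0.0271 without GS 1 and 0.179 without GS 2).

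**Figure D3:**
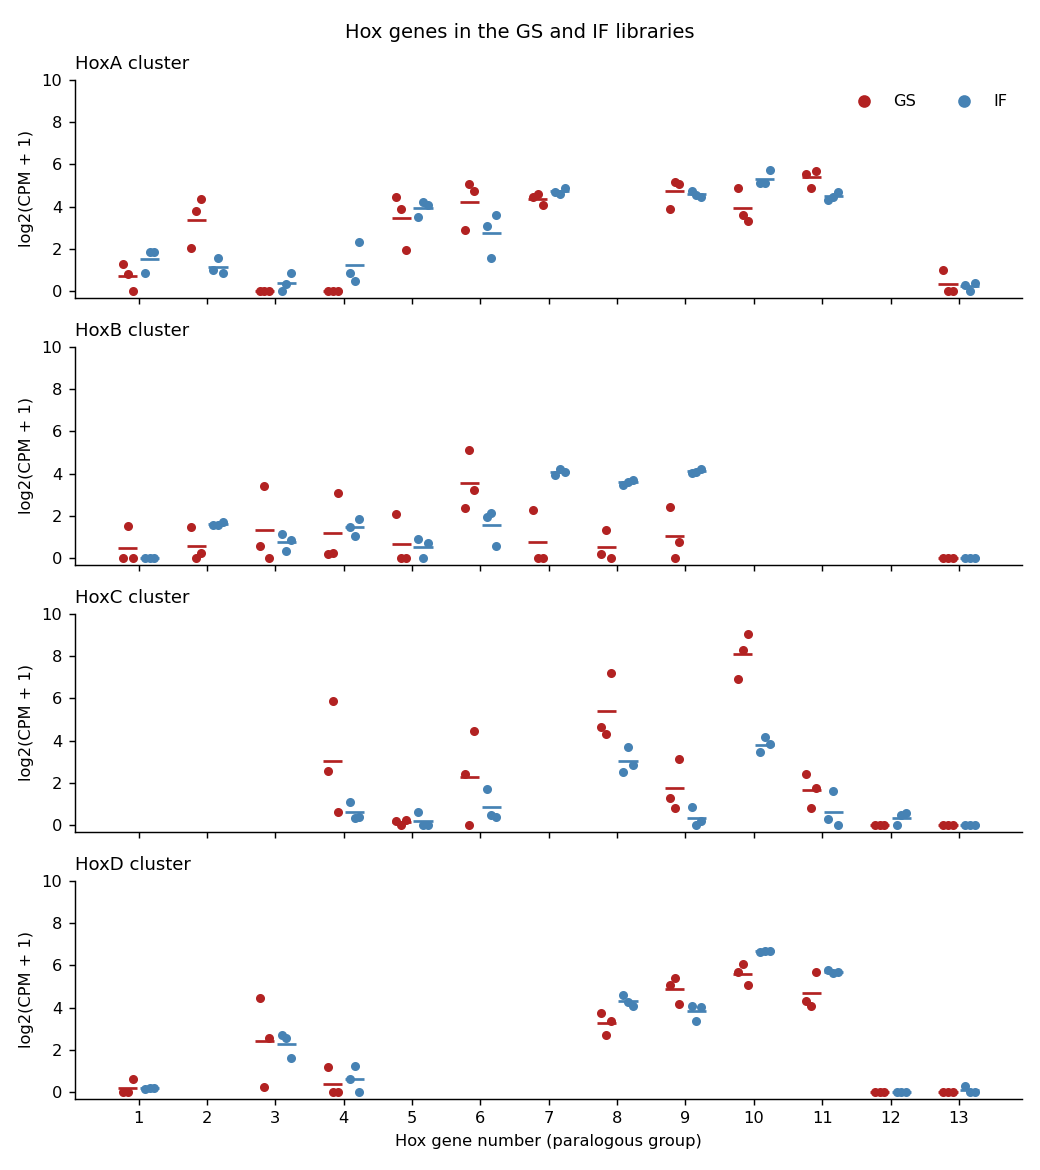
Levels of 39 Hox genes as log2(CPM + 1) by cluster (panels) and by number in the cluster (x), with the 3 GS libraries in red left of the 3 IF libraries in blue and a line at each mean. Hoxc10 is the called gene, and Hoxb7, Hoxb8 and Hoxb9 have reads in every IF library.

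Among 31 transcription factors and related genes of motor columns and pools, 1 was called higher in GS and 2 lower. Over all genes tested, 0.621% were called higher and 0.72% lower. Fign (ENSMUSG00000075324, chr2:63809564-63936096 on mm9), fidgetin, an enzyme that cuts microtubules and is listed here as a pool marker rather than a DNA-binding factor, was at 6.26, 12.7 and 10.6 CPM in GS, against 441, 396 and 396 CPM in IF (log2 fold change -5.38 ± 0.32, edgeR adjusted p = 0.000154). Pou3f1, a POU-domain factor that marks certain motor pools, was at 0.823, 0 and 0 CPM in GS, against 24.9, 25.3 and 25.9 CPM in IF (edgeR adjusted p = 0.024), with 5 reads in GS, all in GS 1. Esrrb, an orphan nuclear receptor and a marker of slow motor neurons, was at 48.7, 82.1 and 67.7 CPM in GS, against 7.3, 9.16 and 11.3 CPM in IF (log2 fold change 2.84 ± 0.39, edgeR adjusted p = 0.0103). Etv1, an ETS factor of some pools, was at 5.43, 0.569 and 132 CPM in GS, against 8.1, 4.58 and 5.87 CPM in IF and did not pass (log2 fold change 2.89 ± 1.37, edgeR adjusted p = 0.346). Its level in GS rested on GS 3, without which the log2 fold change was -1.03. Fign kept its call without each library, and Pou3f1 and Esrrb lost theirs without IF 1, IF 2 or IF 3 (edgeR adjusted p from 0.0864 to 0.171). In the fit of all 15 libraries none of these 3 was called, with edgeR adjusted p of 0.0773 for Fign.

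Potassium channels leaned to GS. Of 54 channel and channel-associated genes tested, 7 were called higher in GS (13.0%, beside 0.621% of all genes), none lower, and 38 had a log2 fold change above 0, with a median of 0.68 against 0.05 over all genes. Of all 13199 genes tested, 6982 had a log2 fold change above 0. Kcng4 (ENSMUSG00000045246, chr8:122147754-122159581 on mm9), a silent subunit that modifies Kv2 channels and a marker of fast motor neurons, was at 55.3, 89.9 and 153 CPM in GS, against 2.51, 0.139 and 2.28 CPM in IF (log2 fold change 5.89 ± 0.78, edgeR adjusted p = 0.00933). Kcnc1 (ENSMUSG00000058975, chr7:53651867-53693746 on mm9), the fast-repolarising Kv3.1 channel, was at 174, 225 and 472 CPM in GS, against 42.8, 35.7 and 28.4 CPM in IF (log2 fold change 3.03 ± 0.40, edgeR adjusted p = 0.00933). Its relative Kcnc4, Kv3.4, was at 202, 269 and 141 CPM in GS, against 74.5, 56.5 and 59.7 CPM in IF (log2 fold change 1.68 ± 0.29, edgeR adjusted p = 0.0301). In both Kv3 genes the lowest GS library lay above the highest IF library.

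Kcnk3, the background leak channel TASK-1, was at 286, 316 and 486 CPM in GS, against 106, 86.2 and 79.1 CPM in IF (log2 fold change 2.00 ± 0.27, edgeR adjusted p = 0.0103). Kcna1, the Kv1.1 channel of axons, was at 960.4, 1239 and 1715 CPM in GS, against 577, 481 and 415 CPM in IF (log2 fold change 1.41 ± 0.26, edgeR adjusted p = 0.0379). Kcnj10, the Kir4.1 channel best known from glia, was at 313, 209 and 256 CPM in GS, against 79, 87.6 and 96.7 CPM in IF (log2 fold change 1.56 ± 0.24, edgeR adjusted p = 0.0193). Kcnip1, a Kv4-associated protein, named after its value was seen, was at 221, 427 and 444 CPM in GS, against 129, 139 and 114 CPM in IF (log2 fold change 1.51 ± 0.29, edgeR adjusted p = 0.043). The oligodendrocyte markers, which were also higher in GS without a call, summed to 346 to 801 CPM in GS and 267 to 281 CPM in IF. The interneuron markers, with all 4 tested members above 0 and none called, summed to 135 to 283 CPM in GS and 38.9 to 78.8 CPM in IF. The part of both cell types in these differences was not tested. All 7 lost the call without 1 or more libraries (edgeR adjusted p up to 0.29), namely Kcng4 without IF 1 or IF 3, the others without any IF library, Kcna1 and Kcnip1 also without GS 3, and Kcnip1 without GS 2. Of the 7, Kcnc1 was the one called in the fit of all 15 libraries (edgeR adjusted p = 0.0219).

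Of 37 sodium, calcium and HCN channel genes, 2 were called higher in GS and 1 lower, beside 0.621% and 0.72% of all genes. Cacng5 (ENSMUSG00000040373, chr11:107735919-107776370 on mm9), an auxiliary subunit that modifies AMPA receptors, was at 259, 244 and 189 CPM in GS, against 34.9, 23.7 and 31.1 CPM in IF (log2 fold change 2.95 ± 0.27, edgeR adjusted p = 0.0012), and it kept the call without each library and in the fit of all 15. Cacng7, a close relative, was at 88.1, 162 and 113 CPM in GS, against 45.4, 33 and 40.1 CPM in IF (log2 fold change 1.61 ± 0.31, edgeR adjusted p = 0.043). Cacna2d1 (ENSMUSG00000040118, chr5:15440509-15880330 on mm9), the calcium channel subunit that binds gabapentin, was at 68.3, 46.1 and 94.6 CPM in GS, against 222, 295 and 305 CPM in IF (log2 fold change -1.97 ± 0.30, edgeR adjusted p = 0.0193). Cacng7 and Cacna2d1 lost the call without IF 1, IF 2 or IF 3, and Cacng7 also without GS 3 (edgeR adjusted p from 0.0552 to 0.298).

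Receptors of transmitters differed in a few members, where 1.34% of all genes tested were called. Adra1b (ENSMUSG00000050541, chr11:43588108-43714713 on mm9), an alpha-1 adrenergic receptor, was at 102, 123 and 69.2 CPM in GS, against 4.34, 5.97 and 2.28 CPM in IF (log2 fold change 4.53 ± 0.46, edgeR adjusted p = 0.00238). It was the 1 called of 18 monoamine receptors, and it kept the call without each library. Of 40 glutamate, GABA and glycine receptor genes, the glycine receptor subunit Glra1 was higher in GS, at 172, 382 and 304 CPM in GS, against 107, 79 and 77.8 CPM in IF (log2 fold change 1.70 ± 0.32, edgeR adjusted p = 0.0386). Glra3, another glycine receptor subunit, went the other way, at 1.65, 1.33 and 2.2 CPM in GS, against 15.6, 11.9 and 26.3 CPM in IF (log2 fold change -3.36 ± 0.65, edgeR adjusted p = 0.043). Of 13 cholinergic genes, Bche, which breaks down choline esters, was the one called, at 3.29, 5.12 and 8.44 CPM in GS, against 66.1, 127 and 89.7 CPM in IF (log2 fold change -4.07 ± 0.46, edgeR adjusted p = 0.00434), with the call kept without each library and lost in the fit of all 15 (edgeR adjusted p = 0.453). Glra1, Glra3 and Tacr1 lost the call without IF 1, IF 2 or IF 3, the glycine receptor subunits also without GS 3 and Glra3 without GS 1 (edgeR adjusted p from 0.0532 to 0.345).

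Lists of motor neuron types were read from the same fit. Of 9 alpha and fast motor neuron markers, 3 were called higher in GS and none lower, namely Calca, Kcng4 and Spp1, where 0.621% of all genes were called higher. The list's median was 0.72, against 0.05 over all genes. Spp1, osteopontin, was at 34.1, 84.8 and 80.9 CPM in GS, against 11.8, 15.8 and 8.64 CPM in IF (log2 fold change 2.46 ± 0.46, edgeR adjusted p = 0.0386), and it lost the call without GS 3 or any IF library (edgeR adjusted p from 0.0643 to 0.251). Of the same list, Chodl, a marker of fast neurons named after its value was seen, was at 971, 1628 and 1242 CPM in GS, against 635, 618 and 487 CPM in IF (log2 fold change 1.14 ± 0.24, edgeR adjusted p = 0.0558). Chodl passed without GS 1 (edgeR adjusted p = 0.0234) and did not with any other library left out (edgeR adjusted p from 0.0611 to 0.367). Of 3 slow markers, Esrrb was higher in GS as well. None of 5 gamma markers was called, and Esrrg among them stood at 410.2, 616 and 664 CPM in GS, against 271, 365 and 376 CPM in IF (log2 fold change 0.74 ± 0.25, edgeR adjusted p = 0.194). Called fast and slow markers were thus both on the GS side. Of the 9 alpha and fast markers, 2 had a log2 fold change below 0 and no call. Among these was Osmr, named after its values were seen (log2 fold change -4.82, edgeR adjusted p = 0.073). Of 9 neurofilament and related genes, Vim, vimentin, an intermediate filament of immature and non-neuronal cells, was lower in GS, at 20.3, 13.7 and 12.5 CPM in GS, against 91.8, 118 and 107 CPM in IF (log2 fold change -2.77 ± 0.33, edgeR adjusted p = 0.00469), with the call lost without IF 2 or IF 3 (edgeR adjusted p from 0.0568 to 0.0688).

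**Figure D4:**
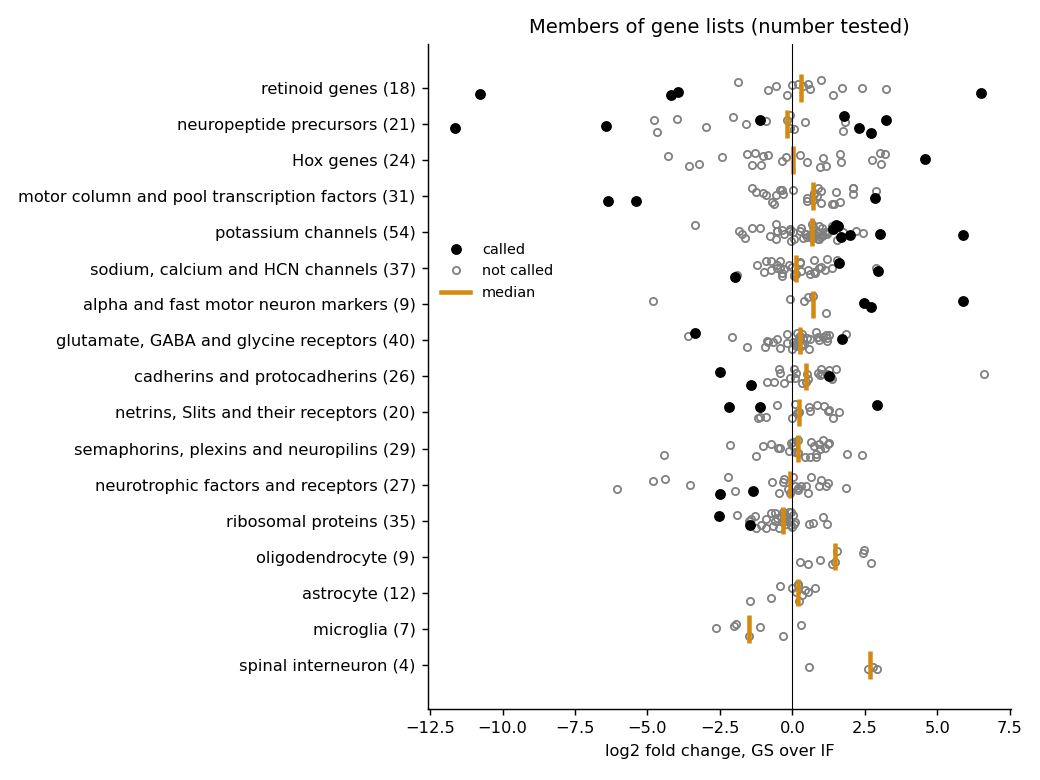
Log2 fold change of GS over IF (x) for the tested members of 17 gene lists (y, number tested in brackets), with called genes filled, others open and the list median as an orange bar. The 7 called potassium channels all lie above 0, and the called retinoid and peptide genes lie on both sides.

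Guidance and adhesion genes were called in both directions, and the share called over all genes was 1.34%. Reln (ENSMUSG00000042453, chr5:21390272-21850524 on mm9), the secreted protein reelin, which is in none of the lists, was at 173, 193 and 188 CPM in GS, against 22, 28.2 and 24.1 CPM in IF (log2 fold change 2.90 ± 0.25, edgeR adjusted p = 0.000876). The spread within each pool was small beside the difference. Of 26 cadherins and protocadherins, Pcdh9 was higher in GS, at 242, 343 and 400.1 CPM in GS, against 141, 142 and 133 CPM in IF (log2 fold change 1.25 ± 0.24, edgeR adjusted p = 0.043). Pcdh19 and Cdh13 were lower, with Pcdh19 at 107, 136 and 87.5 CPM in GS, against 328, 297 and 275 CPM in IF (log2 fold change -1.44 ± 0.24, edgeR adjusted p = 0.0245). Cdh13, a cadherin held by a lipid anchor, was at 31.5, 95.8 and 29.3 CPM in GS, against 266, 320.4 and 308 CPM in IF (log2 fold change -2.51 ± 0.45, edgeR adjusted p = 0.033; -3.29 on the log2 scale without GS 2).

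Of 20 genes for netrins, Slits and their receptors, Flrt3, a ligand of Unc5 receptors, was higher in GS, at 35.1, 36 and 112 CPM in GS, against 10.04, 4.58 and 9.78 CPM in IF (log2 fold change 2.91 ± 0.58, edgeR adjusted p = 0.0484; 2.12 on the log2 scale without GS 3). The netrin receptor Unc5d was lower, at 70.8, 44.8 and 41.5 CPM in GS, against 260.0, 191 and 259.8 CPM in IF (log2 fold change -2.18 ± 0.29, edgeR adjusted p = 0.00942). Neo1, neogenin, another netrin receptor, was at 102, 139.8 and 127 CPM in GS, against 254, 285 and 257 CPM in IF (log2 fold change -1.11 ± 0.22, edgeR adjusted p = 0.0484). Of 15 Eph receptors and ephrins, Epha3, a receptor of ephrin-A ligands, was the one called, at 11.2, 23.1 and 28.4 CPM in GS, against 134, 143 and 141 CPM in IF (log2 fold change -2.74 ± 0.37, edgeR adjusted p = 0.00942). None of 29 semaphorins, plexins and neuropilins was called, and the 2 smallest p belonged to Sema7a, at 339.9, 331 and 291 CPM in GS, against 142, 88.6 and 176 CPM in IF (edgeR adjusted p = 0.0687), and Plxnb1, at 57.5, 37.6 and 67.7 CPM in GS, against 14.6, 20.3 and 9.62 CPM in IF (edgeR adjusted p = 0.0709). Plxnb1 passed without GS 2 (edgeR adjusted p = 0.0284) and did not with any other library left out (edgeR adjusted p from 0.0798 to 0.37).

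Of 31 adhesion molecules of the immunoglobulin family, Cadm1, a synaptic adhesion molecule, was the one called (3.23%, beside 1.34% of all genes). It was at 44.6, 67.9 and 73.6 CPM in GS, against 10.04, 7.78 and 12.4 CPM in IF (log2 fold change 2.62 ± 0.39, edgeR adjusted p = 0.0183). Of 17 heparan sulfate enzymes, which build or modify cell-surface sugar chains, Ndst4 was higher, at 70.5, 62.6 and 70.3 CPM in GS, against 23.5, 18.3 and 22.3 CPM in IF (log2 fold change 1.66 ± 0.31, edgeR adjusted p = 0.0386). Hs6st2 was lower, at 54, 48.4 and 39.99 CPM in GS, against 135, 122 and 145 CPM in IF (log2 fold change -1.50 ± 0.25, edgeR adjusted p = 0.0262). Of the 11 called genes of guidance, adhesion and heparan sulfate, Reln alone kept the call without each library. The 10 others lost it without IF 1, IF 2 or IF 3, Pcdh9, Cdh13, Flrt3, Neo1 and Ndst4 also without GS 3, and Cdh13 without GS 1 (edgeR adjusted p from 0.0508 to 0.321). None of the 11 was called in the fit of all 15 libraries, where edgeR adjusted p reached 0.881.

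Both called members of the neurotrophic list were lower in GS. Lifr (ENSMUSG00000054263, chr15:7079559-7147490 on mm9), the receptor shared by leukemia inhibitory factor and ciliary neurotrophic factor, was at 231, 212 and 379 CPM in GS, against 1649, 1409 and 1621 CPM in IF (log2 fold change -2.51 ± 0.27, edgeR adjusted p = 0.00295). It kept the call without each library and in the fit of all 15. Igf1, insulin-like growth factor 1, was at 121, 134 and 151 CPM in GS, against 226, 403 and 409.8 CPM in IF (log2 fold change -1.36 ± 0.27, edgeR adjusted p = 0.0498), close to the threshold, and lost the call without any of the 6 libraries (edgeR adjusted p from 0.0611 to 0.314). These were the 2 called of 27 neurotrophic genes (7.41%, beside 1.34% of all genes). Osmr, the oncostatin M receptor, also in the list of alpha and fast markers and named after its values were seen, was at 1.32, 0 and 18 CPM in GS, against 179, 207 and 159 CPM in IF and did not pass (log2 fold change -4.82 ± 1.10, edgeR adjusted p = 0.073), with GS 2 at 0 and GS 3 at the highest GS level. It passed without GS 2 (edgeR adjusted p = 0.0338) and without GS 3 (0.00201). Without GS 1 or any IF library it did not (edgeR adjusted p from 0.09 to 0.33).

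The genes named for their size included several with reads in IF and few or none in GS. They come from no single list, and no test of a shared theme was made. Reg3b (ENSMUSG00000071356, chr6:78320879-78323461 on mm9), a lectin induced by tissue damage and by cytokines, had no read in GS and stood at 84.7, 129 and 69.6 CPM in IF, at least 531-fold lower in GS (edgeR adjusted p = 0.000769). Ccl7, a chemokine, had no read in GS and 9.24, 9.58 and 14 CPM in IF, at least 59.8-fold lower in GS (edgeR adjusted p = 0.0245). Oasl2, an interferon-induced gene, had none in GS and 15.1, 11.2 and 13.5 CPM in IF, at least 75-fold lower in GS (edgeR adjusted p = 0.0191). A gene with no GS read passed the filter on low counts only with enough reads in all 3 IF libraries. The filter thus fixed in advance that these 3 genes had reads in each.

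Irgm2, an interferon-induced GTPase, had 1 read in GS and 241 in IF, where it stood at 13.4, 11.1 and 7.17 CPM, a ratio of IF to GS of 183 with a 95% counting interval of 32.6 to 7262 (edgeR adjusted p = 0.0245). Fst, follistatin, an inhibitor of activins, had no read in GS and 2.28, 14.3 and 16.3 CPM in IF, at least 56.5-fold lower in GS (edgeR adjusted p = 0.0484). Ly6a, a surface antigen, was at 2.96, 2.28 and 2.38 CPM in GS, against 33.2, 63 and 63.3 CPM in IF (log2 fold change -4.37 ± 0.47, edgeR adjusted p = 0.00319). Of 14 immediate early and injury genes, Nts was the one called higher and Reg3b the one called lower, and Fos and Jun were not called. Over all genes tested, 0.621% were called higher and 0.72% lower. The list had 8 members with a log2 fold change above 0 and 6 below. Sprr1a of this list, named after its values were seen, did not pass (log2 fold change -4.35, edgeR adjusted p = 0.092). The calls of Reg3b and Ly6a held without each library, and in the fit of all 15 libraries Reg3b was called (edgeR adjusted p = 0.0285) and Ly6a was not (0.107). In EDL, on the 15-library scale, Irgm2 averaged 34.8 ± 11 and Ly6a 158 ± 122 CPM, and in IF they averaged 9.43 ± 2.82 and 47.5 ± 15.5 CPM (SD, 3 libraries each). That difference was not tested. Ccl7, Oasl2, Irgm2 and Fst lost theirs without IF 1, IF 2 or IF 3, and Fst also without GS 1 or GS 3 (edgeR adjusted p from 0.0557 to 0.285).

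Several genes outside these lists were named for the size or the p of their difference. Cpne4 (ENSMUSG00000032564, chr9:104449616-104936875 on mm9), a calcium-dependent membrane-binding copine, was at 5.76, 1.71 and 0.183 CPM in GS, against 219, 260.1 and 251 CPM in IF (log2 fold change -6.54 ± 0.74, edgeR adjusted p = 0.00404), the 1 called of 9 copines, beside 1.34% of all genes. Bnc2 (ENSMUSG00000028487, chr4:83918446-84320991 on mm9), the zinc-finger protein basonuclin 2, was at 0.659, 0 and 0.367 CPM in GS, against 99.1, 70.5 and 83.8 CPM in IF (log2 fold change -7.83 ± 0.66, edgeR adjusted p = 0.000769). Col8a1 (ENSMUSG00000068196, chr16:57624371-57754851 on mm9), a short-chain collagen, was at 1.15, 1.52 and 4.22 CPM in GS, against 127, 224 and 169 CPM in IF (log2 fold change -6.23 ± 0.53, edgeR adjusted p = 0.000769). All 3 were at most a few CPM in GS and well above that in each IF library. The size of such low genes moved with single libraries, to -7.99 for Cpne4 and -8.68 for Bnc2 without GS 1, and to -7.01 for Col8a1 without GS 3 (log2).

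Necab1, a neuronal calcium-binding protein, was at 6.59, 8.92 and 3.67 CPM in GS, against 174, 137 and 156 CPM in IF (log2 fold change -4.60 ± 0.38, edgeR adjusted p = 0.000769). Thsd7a, a membrane protein with thrombospondin repeats, was at 21.9, 36.4 and 20.4 CPM in GS, against 289.6, 316 and 287 CPM in IF (log2 fold change -3.51 ± 0.30, edgeR adjusted p = 0.000769). Syt6, a synaptotagmin, had no read in GS and 11.4, 28.6 and 12.6 CPM in IF, at least 97-fold lower in GS (edgeR adjusted p = 0.0187). Trim58, a ubiquitin ligase, had 2 reads in GS and 373 in IF, where it stood at 15.5, 12.6 and 23.8 CPM, a ratio of IF to GS of 142 with a 95% counting interval of 39 to 1174 (edgeR adjusted p = 0.0193). On the GS side, Slc27a1, a fatty acid transporter, was at 85.3, 139.8 and 216 CPM in GS, against 18.6, 11.1 and 19.7 CPM in IF (log2 fold change 3.15 ± 0.41, edgeR adjusted p = 0.00933). Dgkg, a diacylglycerol kinase, was at 40.5, 122 and 61.1 CPM in GS, against 10.7, 6.94 and 7.17 CPM in IF (log2 fold change 3.17 ± 0.49, edgeR adjusted p = 0.0193). Dusp10, a phosphatase of stress-activated kinases, was at 16.3, 52.4 and 9.91 CPM in GS, against 0.799, 1.25 and 0.978 CPM in IF (log2 fold change 4.68 ± 0.79, edgeR adjusted p = 0.0261; 3.68 on the log2 scale without GS 2). Of these 10 genes, Cpne4, Bnc2, Col8a1, Necab1 and Thsd7a kept the call without each library, and the other 5 lost it without IF 1, IF 2 or IF 3 (edgeR adjusted p from 0.0728 to 0.206). In the fit of all 15 libraries Cpne4, Bnc2, Col8a1 and Necab1 were not called (edgeR adjusted p = 0.152, 0.408, 0.102 and 0.432), while Thsd7a was (0.0272).

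Of 35 cytosolic ribosomal protein genes, 28 had a log2 fold change below 0, beside 6217 of all 13199 genes tested. Their median was -0.33, against 0.05 over all genes. Rps4x and Rpl15 alone were called, 5.71% of the list, beside 1.34% of all genes. Rps4x was at 5.27, 6.64 and 4.77 CPM in GS, against 27.5, 34.7 and 35.5 CPM in IF (log2 fold change -2.55 ± 0.44, edgeR adjusted p = 0.0292), and Rpl15 at 49.2, 76.5 and 85.7 CPM in GS, against 196, 190.0 and 200.4 CPM in IF (log2 fold change -1.47 ± 0.27, edgeR adjusted p = 0.0365). Both lost the call without IF 1, IF 2 or IF 3 (edgeR adjusted p from 0.181 to 0.235). Ribosomal protein genes have many processed copies in the genome, and how the authors' counting split reads among them is not given in the sources used here.

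Markers of other cells were summed by library, since the captured sections can hold neighbours of a neuron. The 16 oligodendrocyte markers summed to 595, 346 and 801 CPM in GS and to 281, 267 and 268 CPM in IF. All 9 of them that could be tested had a log2 fold change above 0 (median 1.46) and none was called, with Mbp, the basic protein of myelin, at 202, 159.5 and 275 CPM in GS, against 102, 62.3 and 66.2 CPM in IF (log2 fold change 1.46 ± 0.30, edgeR adjusted p = 0.0529). Mbp was called without GS 2 (edgeR adjusted p = 0.0249) and was not with any other library left out (edgeR adjusted p from 0.0561 to 0.33). Opalin was at 0 in all 6 libraries and Mog at under 1 CPM in each.

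The 12 interneuron markers summed to 216, 283 and 135 CPM in GS and to 38.9, 78.2 and 78.8 CPM in IF. All 4 tested had a log2 fold change above 0 (median 2.69) and none was called. Gad2, an enzyme that makes GABA, was at 70.6, 77.8 and 51.4 CPM in GS, against 1.37, 7.5 and 17.4 CPM in IF (log2 fold change 2.93 ± 0.73, edgeR adjusted p = 0.0929), and Slc6a5, the glycine transporter of glycinergic neurons, at 66, 122 and 21.1 CPM in GS, against 1.48, 9.3 and 20.2 CPM in IF (log2 fold change 2.76 ± 0.87, edgeR adjusted p = 0.167). Gata3, Lbx1, Lmx1b and Tlx3 were at 0 in all 6 libraries. The microglia markers ran the other way, with 6 of 7 tested below 0 (median -1.49), none called, with sums of 46.6, 10.1 and 18.5 CPM in GS and 30.1, 62.2 and 68.6 CPM in IF. Of the astrocyte (12), endothelial (8), Schwann and sensory (1) and erythrocyte (2) markers tested none was called, and of 5 fibroblast markers Ly6a was. Over all genes tested, 1.34% were called, and 6982 of 13199 had a log2 fold change above 0. The part of these cells in the differences above was not tested.

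The TA, EDL and PL libraries place the pair among the 5 pools, on a scale common to the 15 libraries. For 59 of the 82 genes higher in GS, and for 81 of the 95 lower in GS, the mean log2 level of TA, EDL and PL lay nearer to GS than to IF, against 56.1% of all genes tested. The 3 IF libraries lay outside the range of the 9 TA, EDL and PL libraries in 43 of the 82 and 50 of the 95, against 5.19% of all genes tested. The 3 GS libraries did so in 1 and 3, against 0.917% of all genes tested. These counts carry no test. Called genes were chosen for a difference between GS and IF, so part of the excess over all genes was built in. The IF libraries also spread less than the GS libraries (median SD per gene of 0.28 against 0.65 on the log2 scale). Aldh1a2 was at 292 ± 159 CPM in GS (mean ± SD of 3 libraries), 3.2 ± 1.54 in IF, 493 ± 122 in TA, 365 ± 21.1 in EDL and 746 ± 184 in PL, so that IF was the pool apart. Cpne4 stood at 2.27 ± 2.56 CPM in GS, 218 ± 19.7 in IF, 0.12 ± 0.209 in TA, 1.96 ± 2.07 in EDL and 1.73 ± 3 in PL.

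Crabp2 had 1 read in GS, 124 ± 1.93 CPM in IF, and 0 in each TA, EDL and PL library. Reg3b had reads in no library outside IF, and Pou3f1 had 1 read among the 9 TA, EDL and PL libraries. Hoxc10 was at 285 ± 179 CPM in GS, 11.9 ± 3.2 in IF, 369 ± 94.2 in TA, 187 ± 44.1 in EDL and 211 ± 111 in PL, so that all 3 IF libraries lay under the other 12. Calca stood at 622 ± 101 CPM in GS, 96.1 ± 19.2 in IF, 1198 ± 284 in TA, 555 ± 96.7 in EDL and 605 ± 317 in PL, and here too the IF libraries were the lowest. Lifr was at 244 ± 80.8 CPM in GS, 1392 ± 109 in IF, 233 ± 63.2 in TA, 318 ± 47.9 in EDL and 833 ± 303 in PL, with every IF library above the other 12.

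Other genes had other patterns over the pools. In Nts, Lxn and Igf1 every IF library still lay outside the range of all other libraries, while in Sst, Fign and Cacna2d1 it did not. Sst was at 1761 ± 734 CPM in GS, 359 ± 95.5 in IF, 921 ± 157 in TA, 73.9 ± 29.9 in EDL and 90.8 ± 55.9 in PL, so that EDL and PL lay under IF. Nts was at 36.6 ± 14.4 CPM in GS, 3.95 ± 1.51 in IF, 32.8 ± 11.3 in TA, 514 ± 74.5 in EDL and 233 ± 18.2 in PL, the levels of the pair being far under those of EDL and PL. Lxn was at 20.1 ± 3.36 CPM in GS, 308 ± 22.7 in IF, 9.42 ± 4.64 in TA, 37.9 ± 4.02 in EDL and 169.5 ± 76.7 in PL, so that PL came between the pools of the pair. Fign was at 8.81 ± 2.98 CPM in GS, 367 ± 22.9 in IF, 9.81 ± 15.3 in TA, 167 ± 50.02 in EDL and 257 ± 181 in PL, so that GS and TA were the low pools. Cacna2d1 was at 62.1 ± 21.5 CPM in GS, 245 ± 40.3 in IF, 320.1 ± 34.9 in TA, 158 ± 21.3 in EDL and 241 ± 110.1 in PL, where GS had the lowest mean. Igf1 was at 121 ± 13.6 CPM in GS, 309 ± 93.4 in IF, 53.3 ± 36 in TA, 6.3 ± 8.08 in EDL and 16.6 ± 14.9 in PL, with the means of both pools of the pair above those of the 3 others. PL 2 and PL 3 had few genes with a read, 11019 and 10548, where the 13 other libraries had 13092 to 17321.

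**Figure D5:**
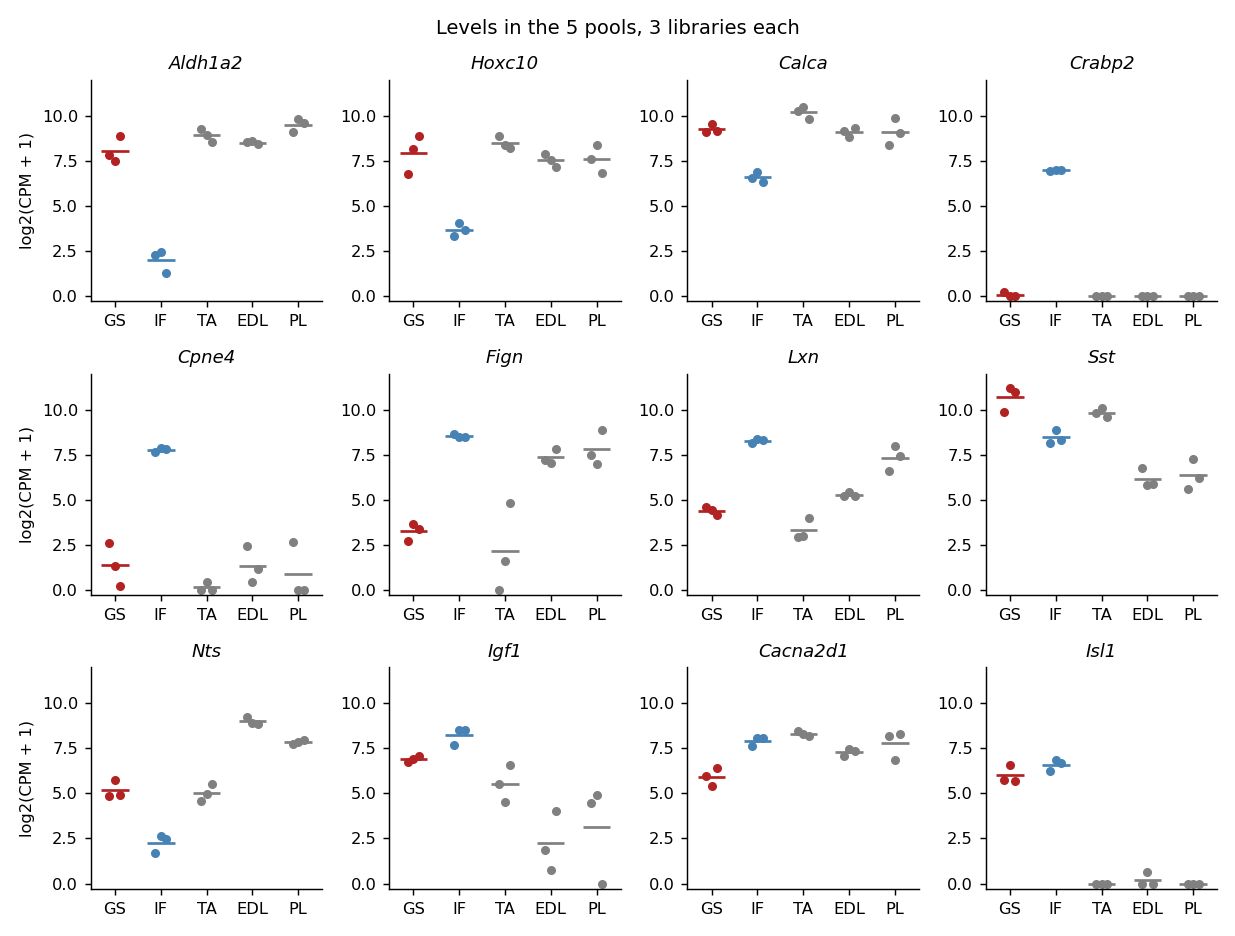
Levels of 12 genes as log2(CPM + 1), scaled over all 15 libraries, in the 3 libraries of GS (red), IF (blue), TA, EDL and PL (grey), with a line at each mean. IF stands apart from the 4 other pools in Aldh1a2, Hoxc10, Calca, Crabp2, Cpne4, Lxn, Nts and Igf1. Nts is highest in EDL and PL, and Isl1 is at or near 0 outside GS and IF.

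The authors' deposited tables for this pair list 49 genes as higher in GS and 41 as higher in IF. All 48 genes of the first of the authors' deposited tables that were tested here, and all 41 of the second, had the same direction in the fit of the 6 libraries. The calls here shared 29 genes with the first list, 59.2% of it and 35.4% of the 82. They shared 31 with the second, 75.6% of it and 32.6% of the 95. In the authors' deposited tables the adjusted p was at most 0.0104 for genes higher in GS and 0.00733 for genes higher in IF, and the higher RPKM of the pair was at least 11.9 and 10.7. Hoxc8, Osmr, Tac1 and Sprr1a are in the authors' deposited tables and did not pass in the fit of the 6 libraries, as given above.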

How the data were processed

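Unnormalized read counts of 15 libraries by gene were deposited by the authors, from reads aligned with Bowtie 0.12.9 to mm9 per the submitters' processing notes, with counter and gene model not given in the sources used here. Libraries were made with the Ovation V2 and Nextera kits per the labels' protocols, which do not mark strand, so overlapping and antisense genes cannot be separated. Values below 0 stood in 16 cells of 4 genes, which were left out. The foot columns were matched to the IF samples by name. The RPKM values are the authors' own, used for levels between genes. The deposited lists for this pair hold a fold (IF over GS), its log2, p-values from DESeq, a mean RPKM and a mean normalized signal of each pool, computed by the authors. The log2 fold change and the normalized signal were not used.

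The counts of the 6 libraries were filtered with filterByExpr, scaled by TMM and tested with edgeR 4.0.16 (glmQLFit, glmQLFTest; R 4.3.3), with Benjamini-Hochberg adjustment over 13199 genes at 0.05 and CPM as levels. The pair was fitted alone, with a common dispersion of 0.274, against 0.789 over all 15 libraries. The procedure was tested on simulated counts, with 50 changed genes at each fold, all above 5 CPM. It recovered 4% of 2-fold, 60% of 4-fold, 82% of 8-fold and 98% of 16-fold changes. There were 8 false calls among 12704 genes run. The simulation gave both pools the same spread for a gene, while in the data GS spread more than IF (median SD per gene of 0.65 against 0.28, log2). These rates do not cover such unequal spread. A gene without a call can thus still differ, above all at small folds. Exact intervals have 95% confidence, and a count of 0 was set to 3 counts over a pool. With 3 libraries against 3, an exact permutation test of 1 gene cannot go below 0.1, so none was used. Alternatives were a fit of all 15 or of 12 libraries, RLE factors, no filter, a mean of at least 5 CPM, counts thinned to the lowest total, a replicate block, each library left out, DESeq2 1.42.0 and limma voom 3.58.1. Libraries of a pool differed by more than counting noise, with a chi-square of counts over its degrees of freedom of 9.72 or more in every pair. No read was counted for mitochondrial genes in the 6 libraries, and whether the count table lists such genes was not checked.

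Named genes were up to 12 per direction by size among called genes whose pools did not overlap and whose higher pool averaged at least 10 CPM, up to 8 per direction by p, up to 6 called members of each list or else the 2 with the smallest p, and a fixed set of pool markers. The members and the lists were chosen with earlier results of these data known. Promoter sequences are RefSeq's on GRCm38.p6. Some genes are not reported here.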

Additional observations from a re-analysis of the deposited data

How the results depend on the processing

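The 177 calls, 82 higher and 95 lower in GS, were recounted under 15 alternatives, and every shared call kept its direction. With all 15 libraries in 1 fit there were 10 higher and 8 lower, 18 in all, each of them among the 177. With the 12 libraries of GS, IF, TA and EDL there were 49 and 28, 77 in all. Without a filter on low counts there were 222 and 170, 392 in all, and DESeq2 gave 535 and 377, 912 in all. Without 1 library the higher genes ranged from 5 to 285, the lower ones from 19 to 173 and all calls from 24 to 447, with the low ends without IF libraries. RLE factors (172 calls), a mean of at least 5 CPM (210), thinned counts (194) and limma voom (203) stayed within 1.5 times. The cause of these shifts was not tested.

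Deviations from the pool means were almost uncorrelated between same-numbered libraries (r of 0.0043, -0.0471 and -0.0161), and not every library correlated best with its own number. No source used here states a pairing. With 3 libraries per pool, these r cannot show whether same-numbered libraries share animals or handling. With the number as a replicate block there were 57 and 75 calls, 132 in all, 112 of them among the 177.

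Of 61 called genes in the named set, 10 kept the call under all 15 alternatives, namely Crabp2, Lxn, Aldh1a2, Thsd7a, Reg3b, Vip, Calca, Cacng5, Adra1b and Lifr. The all-library fit lost 47 of the 61, the 12-library fit 29, leaving out IF 1, IF 2 or IF 3 40, 40 and 42, and the block 15. DESeq2, the thinned counts, the 5 CPM minimum and the absence of a filter lost none. Direction turned in genes without a call only. Etv1 was at -1.03 without GS 3, in a range of -1.03 to 3.47 over the libraries left out, and Kcnj3 at -0.79, in a range of -0.79 to 1.36. Hba-a1 was at -0.051 without IF 2 (range -0.051 to 0.80), and Hbb-b1 at 0.33 without GS 2 and 0.48 without IF 3 (range -0.76 to 0.48).

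The depth, 5488780 to 8258781 counts, limits genes of a few CPM, and 24.0% of tested genes had pools that did not overlap. GS libraries spread more than IF libraries, with a median SD per gene of 0.65 against 0.28 on the log2 scale, and GS 2 had most tested genes at 0, 6.53%.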

Other observations

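A further 6 called genes were named after their values were seen, and no test of a shared theme was made. Slitrk1 and Slitrk2, leucine-rich repeat proteins that organise synapses, were higher in GS, Slitrk1 at 648, 1167 and 1088 CPM in GS, against 312, 261 and 315 CPM in IF (log2 fold change 1.71 ± 0.26, edgeR adjusted p = 0.0191) and Slitrk2 at 232, 244 and 312 CPM in GS, against 77.5, 75 and 84.6 CPM in IF (log2 fold change 1.73 ± 0.23, edgeR adjusted p = 0.00933). Lrrc4c, the netrin-G1 ligand, was at 229, 501 and 506 CPM in GS, against 104, 109 and 109 CPM in IF (log2 fold change 1.94 ± 0.31, edgeR adjusted p = 0.0224). Lgi1, a secreted synaptic protein, was lower in GS, at 19.6, 3.23 and 13.6 CPM in GS, against 97.3, 91.6 and 102 CPM in IF (log2 fold change -2.99 ± 0.55, edgeR adjusted p = 0.0379). Cbln4, a cerebellin, was at 13.3, 15 and 10.5 CPM in GS, against 54.7, 50.3 and 53.5 CPM in IF (log2 fold change -2.03 ± 0.36, edgeR adjusted p = 0.0308). S100a6, a calcium-binding protein, had 1 read in GS and 175 in IF (edgeR adjusted p = 0.0359), a ratio of IF to GS of 133 with a 95% counting interval of 23.6 to 5281. All 6 lost the call without IF 1, IF 2 or IF 3, and Lgi1 and S100a6 also without GS 3 (edgeR adjusted p from 0.0578 to 0.228).

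In some genes 1 GS library was far above the others, again picked after their values were seen. Cdh8, a type II cadherin, was at 4.94, 67.9 and 2.02 CPM in GS, against 0.114, 0.139 and 0.489 CPM in IF (edgeR adjusted p = 0.0709), with GS 2 the high library, and it passed without GS 1 (edgeR adjusted p = 0.0488) and without GS 3 (0.0327), and not without GS 2 (0.14). Kcnj3, an inward rectifier potassium channel, was at 31.9, 41.9 and 287 CPM in GS, against 81.3, 64.2 and 46.1 CPM in IF, with GS 3 the high library (edgeR adjusted p = 0.595).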
